A study of Homo sapiens with 6 samples.

Results

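The cell cycle genes described here are 115 of the 14812 genes named on the array. They were chosen by symbol: the CENP, MCM, ORC, BUB, AURK, PLK, E2F, CDC, CDK, CDKN and GINS families, cyclins A, B, D and E, and single genes such as CDT1, BIRC5, MKI67, TOP2A, FOXM1, PCNA, RRM2 and TYMS. CDC42 and its relatives, CDKN1A and PLK3 were left out, and each gene was represented by its probe set with the highest mean. Of the 115, 111 are annotated as protein-coding. The families also bring in genes that share a name and not a role, such as CDC40, a splicing factor, and CDC37, a chaperone partner of HSP90.

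All samples came from HuH7 cells, a human hepatoma line. One group of 3 samples received a gapmer against EGOT, a long noncoding RNA, and the other group of 3 received a control gapmer. Gapmers are oligonucleotides that direct RNase H to cleave a complementary RNA. In every sample, the controls included, the cells were also transfected with a PKR expression plasmid and with poly I:C, an artificial RNA duplex. PKR is a kinase that binds such duplexes and then blocks translation. Each well was given 50 pmol of gapmer, and RNA was taken 36 hours after transfection. The study used 1 gapmer against EGOT in 1 cell line, and no sample lacked PKR and poly I:C.

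The cell cycle is driven by cyclin-dependent kinases that are switched on by cyclins and restrained by inhibitors. In G1, cyclin D with CDK4 or CDK6 releases E2F factors from the RB protein, and E2F factors switch on genes for DNA replication. Origins of replication are licensed in G1 by loading of the MCM helicase, which later joins CDC45 and GINS to unwind DNA. Cyclin B with CDK1 then drives mitosis, in which kinetochores built on CENP proteins attach chromosomes to the spindle and the anaphase-promoting complex ends the division. Hepatoma cells divide in culture, so transcripts of all these steps are present together in a bulk sample.

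EGOT itself was lower in the EGOT gapmer arrays, at log2 levels of 4.91, 4.90 and 4.69 with the EGOT gapmer, against 6.29, 6.79 and 6.71 with the control gapmer (log2 difference -1.76, standard error 0.142, limma adjusted p = 0.0076). By an exact permutation test (two-sided, 20 assignments) p was 0.1, which is the lower limit for groups of 3. Array medians (all probe sets) were 5.12, 5.23 and 5.08 in EGOT gapmer replicates 1 to 3, against 5.15, 5.12 and 5.12 in control gapmer replicates 1 to 3, so EGOT gapmer replicate 2 stood highest. EIF2AK2, the gene of PKR, also fell, reading 10.60, 10.76 and 10.70 with the EGOT gapmer, against 11.28, 11.25 and 11.24 with the control gapmer (log2 difference -0.57, standard error 0.072, limma adjusted p = 0.0119), although every sample had received the plasmid; what part this has in the results below was not tested. All 10 measured hepatocyte markers, among them ALB, AFP and APOB, lay above every array's median. The fibroblast genes DCN and LUM and the endothelial genes KDR and VWF had means below it in both groups. Of 8 leukocyte markers 4 were measured, and 2 of them, CD68 and LYZ, rose; the linear levels of these 4 summed to between 1358 and 1394 with the EGOT gapmer and between 802 and 849 with the control gapmer. Their part was not tested either. In bulk samples a change in how many cells are in a phase and a change in the RNA per cell cannot be told apart.

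Of the 115 cell cycle genes, 14 rose and 5 fell with the EGOT gapmer. A gene was called when its limma adjusted p, corrected over all 14812 genes, was under 0.05. The 19 calls are 16.5% of the cell cycle genes, where 8.41% of all genes passed. By direction, the rises are 12.2% against 5.2% of all genes, and the falls 4.35% against 3.21%. The genes that rose were CDC26, GINS3, BIRC5, CENPN, PLK4, CENPL, CDKN2AIP, CENPH, CDT1, CDC34, CDK2AP1, CCNB1, MCM10 and MCM2, in order of size. Those that fell were CENPV, CDK14, MKI67, CDK6 and CDK13. Most changes were small: outside CENPV, log2 differences of the called genes ran between -0.49 and 0.61. Over all 115 genes the median difference was 0.12 and 78 lay above 0, whereas over all named genes the median was 0.04 and 57.8% lay above 0.

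In 68 of the 115 cell cycle genes the groups did not overlap at all. That is 59.1%, against 31.7% of all genes. The values were higher with the EGOT gapmer in 50 of them (43.5%, against 20.2% of all genes) and lower in 18 (15.7%, against 11.5%). These genes were also measured with less scatter than most. Their median SD between replicates was 0.085 on the log2 scale, against 0.122 over all genes, and 109 of them lay above the array median on all 6 arrays. Among genes whose mean was above the median of the array medians, 33.9% of the 109 cell cycle genes left passed, against 20.3% of all genes left.

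**Figure D1:**
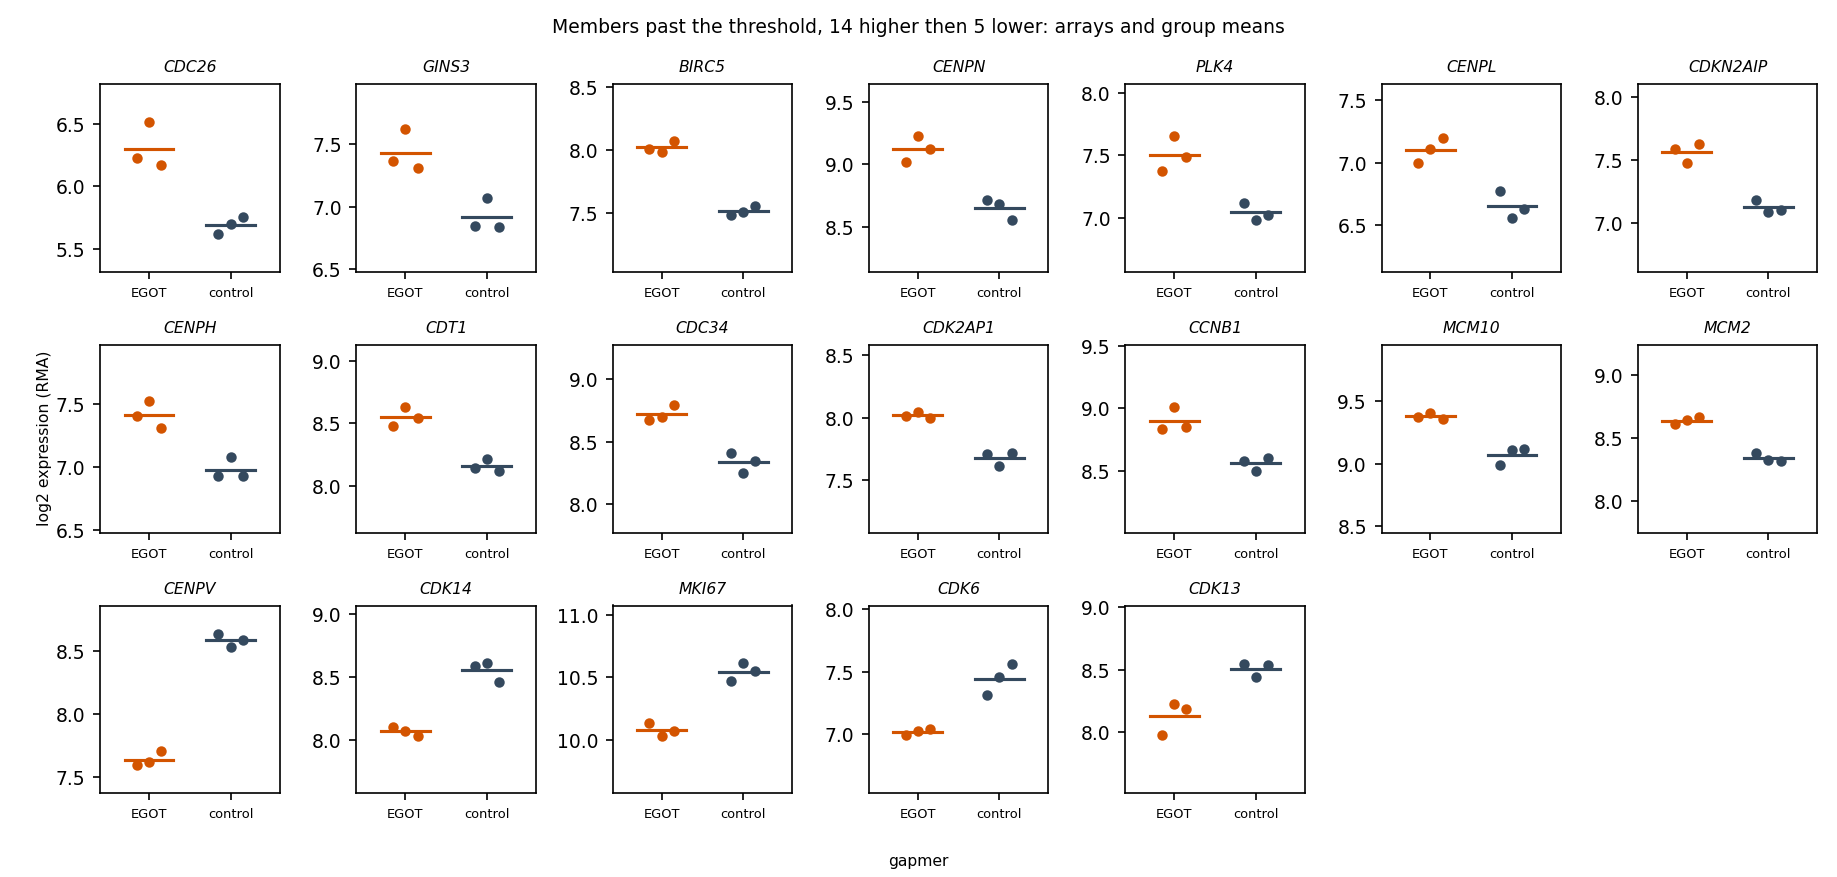
Log2 expression of the 19 cell cycle genes past the threshold, with the EGOT gapmer left and the control gapmer right in each panel. Points are the 3 arrays of a group, the bar is their mean, and every panel spans the same 1.5 log2 units; the groups do not overlap in any of the 19.

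Leaving out 1 array ended most of the calls, and fewer of all genes passed as well. All 19 genes kept the direction of their difference in all 15 alternative analyses, but in most of these it could not turn. The groups did not overlap in any of the 19, so leaving out 1 array cannot turn a sign. Each has 1 probe set, and the level filter and other limma settings leave the difference as it was. Only another quantile normalization, cyclic loess and removal of a trend on gene span could have turned it. Removal of that trend could not for CENPV and MKI67, whose falls it enlarged. Of the 19, 9 passed without EGOT gapmer replicate 1 and 6 without EGOT gapmer replicate 2. That is 7.83% and 5.22% of the cell cycle genes, against 3.91% and 3.41% of all genes. Only CENPV passed without EGOT gapmer replicate 3 or without any single control gapmer array. It is 0.87% of the cell cycle genes, where 1.05% of all genes passed without EGOT gapmer replicate 3. Without control gapmer replicates 1, 2 and 3, 0.392%, 0.0608% and 0.23% of all genes passed. The 6 that passed without EGOT gapmer replicate 2, the array with the highest median, were BIRC5, CDC26, CDK14, CDKN2AIP, CENPV and MKI67. With 1 array left out the difference of BIRC5 lay between 0.49 and 0.53, with a limma adjusted p between 0.0356 and 0.0684. Others moved more: GINS3 lay between 0.42 and 0.59, CDC26 between 0.50 and 0.67, PLK4 between 0.39 and 0.53 and CDK13 between -0.43 and -0.30. The split of directions moved with the scaling. It was 14 higher and 5 lower with the values as deposited, 13 and 8 after another quantile normalization, and 12 and 8 after cyclic loess, while over all genes 61.8%, 50.2% and 48.8% of calls were higher in these 3 scalings.

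Below, the cell cycle genes are taken by role, in small lists. The count of calls in each list was not compared with the 8.41% of all genes that passed. The cyclins and kinases of G1 come first. Of 8 cyclin D, cyclin E and CDK2, CDK4 and CDK6 genes, CDK6 fell and none rose. CDK6, a partner of cyclin D, read 6.99, 7.03 and 7.05 with the EGOT gapmer, against 7.32, 7.46 and 7.56 with the control gapmer (log2 difference -0.42, standard error 0.083, limma adjusted p = 0.0299). The 3 EGOT gapmer arrays lay within 0.06 of each other and all below the control arrays. CDK6 is also among the longest genes here, with a genomic span of 232 kb. Differences followed gene span across the whole array, as described further on, and after subtraction of that trend (span adjustment) the difference of CDK6 was -0.31 (limma adjusted p = 0.0882).

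CDK4, the other cyclin D partner, went the other way without passing, at 0.22 (limma adjusted p = 0.112). Its arrays read 10.17, 10.31 and 10.32 with the EGOT gapmer, against 10.03, 10.08 and 10.03 with the control gapmer, and the groups did not overlap. The cyclin genes themselves were not called. CCND1, cyclin D1, was at -0.08 (limma adjusted p = 0.562), with a 95% confidence interval of -0.26 to 0.09. CCNE1, cyclin E1, was at -0.12 (limma adjusted p = 0.482), with an interval of -0.32 to 0.09. CCNE2, cyclin E2, had a difference as large as that of CDK6, 0.43 (limma adjusted p = 0.0805), but its control arrays were spread from 5.69 to 6.05.

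None of the 5 E2F genes analysed was called, nor was FOXM1. E2F factors either switch on or repress replication genes, and these 2 kinds are both on the array. E2F7, an atypical E2F that represses, came nearest, reading 6.67, 6.77 and 6.89 with the EGOT gapmer, against 7.09, 7.14 and 7.10 with the control gapmer (log2 difference -0.33, standard error 0.08, limma adjusted p = 0.0501). It passed in both rescaled tables. E2F3, an activator, had a difference of -0.42 (limma adjusted p = 0.0877). E2F1, the best known activator, stood on the other side at 0.25 (limma adjusted p = 0.148), as did FOXM1, which drives genes of G2 and mitosis, at 0.26 (limma adjusted p = 0.0839). In all 4 the groups did not overlap, which also holds for 59.1% of the cell cycle genes and 31.7% of all genes. E2F2 and E2F8 had differences of 0.03 and -0.04. The genes E2F4, E2F5 and E2F6 were not analysed here.

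The CDK inhibitors were represented by CDKN2A and CDKN3. CDKN2A, which encodes p16 and ARF, was at 0.02 (limma adjusted p = 0.911), and CDKN3, a phosphatase that acts on CDK2, was at -0.09 (limma adjusted p = 0.675). Their 95% confidence intervals were -0.14 to 0.17 and -0.34 to 0.17. The p27, p57, p15, p18 and p19 inhibitor genes were not analysed here.

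Origin licensing genes were all on one side. Each of the 8 had an estimated difference above 0, from 0.05 for MCM3 to 0.39 for CDT1, with a median of 0.19, and 2 of them rose. CDT1 loads the MCM helicase onto origins. It read 8.48, 8.63 and 8.54 with the EGOT gapmer, against 8.14, 8.22 and 8.12 with the control gapmer (log2 difference 0.39, standard error 0.074, limma adjusted p = 0.0277). MCM2, a helicase subunit, read 8.61, 8.64 and 8.67 with the EGOT gapmer, against 8.38, 8.33 and 8.32 with the control gapmer (log2 difference 0.30, standard error 0.065, limma adjusted p = 0.039). These are rises of 1.31-fold and 1.23-fold, and in MCM2 the arrays of a group lay within 0.06 of each other.

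The other licensing genes were not called. CDC6, which loads the helicase with CDT1, had a difference of 0.30 (limma adjusted p = 0.152), with EGOT gapmer replicate 2 highest at 9.24. Without that array its difference was 0.19. MCM6 was at 0.20 (limma adjusted p = 0.127), MCM4 at 0.18, MCM7 at 0.12, MCM5 at 0.09 and MCM3 at 0.05. Of the 6 subunits of the ring, MCM2 was the one that passed, and differences between subunits were not tested. The sign of MCM3 turned, at -0.02, after span adjustment. After span adjustment CDT1 was at 0.31 (limma adjusted p = 0.0684) and MCM2 at 0.23 (limma adjusted p = 0.105). MCM2 was also short of the threshold after another quantile normalization (0.25, limma adjusted p = 0.0527) and after cyclic loess (0.24, limma adjusted p = 0.0579). The ORC genes and GMNN, which encodes the licensing inhibitor geminin, were not analysed here.

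The promoters of these licensing genes share a motif that the choice of genes did not use. The E2F motif was searched as TTTCCCGC, TTTCGCGC, TTTGCCGC and TTTGGCGC on both strands of RefSeq promoter windows of build GRCh38.p14, from 250 bases before to 50 bases after the start of each gene. It stood in all 6 licensing genes with a window, in 26 of 96 cell cycle genes with a window (27.1%), in 483 of 10736 windows of the genes named on the array (4.5%) and in 908 of 27305 windows in the RefSeq table (3.33%). A match is a description of the letters and not evidence of a site. The stretches below show the match nearest to the start site with 10 bases on each side, on the strand of the gene, with the letters of the motif on either strand in capitals.
CDT1: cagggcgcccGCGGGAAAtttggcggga
CDC6: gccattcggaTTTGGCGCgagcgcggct
MCM2: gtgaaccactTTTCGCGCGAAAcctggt
MCM3: gttcggaagtTTTCGCGCcggggtggag
MCM6: gtcaggTTTGGCGCGAAAtctccagctc
MCM7: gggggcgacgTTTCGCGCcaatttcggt
GINS3: gtccccgggcGCGGGAAAcgagtttcaa
They lie at chr16:88803744-88803771 on the plus strand for CDT1, chr17:40287876-40287903 on the plus strand for CDC6 and chr3:127598403-127598430 on the plus strand for MCM2. Those of MCM3, MCM6 and MCM7 lie on the minus strand at chr6:52284729-52284756, chr2:135876512-135876539 and chr7:100101389-100101416, and that of GINS3 on the plus strand at chr16:58392456-58392483. In MCM2 and MCM6 matches on opposite strands overlap. GINS3 is shown because it rose and belongs to the next step of replication. Of the 6 licensing genes shown, CDT1 and MCM2 rose and the other 4 were not called, so the motif was present in both kinds. Among all cell cycle genes it stood in 3 of 11 windows of genes that rose, 0 of 5 of genes that fell and 23 of 80 of the rest.

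Genes that turn the loaded helicase on and copy DNA gave 2 rises among 13. GINS3, a subunit of the GINS complex, rose 1.43-fold, reading 7.36, 7.62 and 7.31 with the EGOT gapmer, against 6.84, 7.07 and 6.84 with the control gapmer (log2 difference 0.52, standard error 0.111, limma adjusted p = 0.0366). MCM10, which helps activate the helicase, read 9.38, 9.41 and 9.36 with the EGOT gapmer, against 8.99, 9.11 and 9.12 with the control gapmer (log2 difference 0.31, standard error 0.07, limma adjusted p = 0.0426). Its EGOT gapmer arrays lay within 0.05 of each other. GINS2, at 0.26 (limma adjusted p = 0.0607), and GINS4, at 0.31 (limma adjusted p = 0.0695), were on the same side without passing. GINS1 was on the other, at -0.07 (limma adjusted p = 0.566). The GINS complex is thus measured as 3 genes above 0 and 1 below, and GINS3 alone passed. The groups did not overlap in any of the 4, which also holds for 59.1% of the cell cycle genes and 31.7% of all genes. A second, dimmer probe set of GINS4 had a difference of 0.05.

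CDC7, the kinase that fires origins, was at 0.22 (limma adjusted p = 0.113), and CDC45, which joins the helicase with GINS, at 0.09 (limma adjusted p = 0.488). PCNA, the sliding clamp of the replication fork, read 9.76, 9.93 and 9.77 with the EGOT gapmer, against 9.62, 9.57 and 9.57 with the control gapmer (log2 difference 0.23, standard error 0.076, limma adjusted p = 0.109) and did not pass. The nucleotide supply genes TYMS and RRM2 were at 0.06 and -0.09. TOP2A stood apart from the rest of this group. It encodes the topoisomerase that untangles replicated chromosomes, and it read 10.17, 10.29 and 10.10 with the EGOT gapmer, against 10.50, 10.54 and 10.46 with the control gapmer (log2 difference -0.31, standard error 0.077, limma adjusted p = 0.052). TOP2A thus missed the threshold by little, and it passed after either rescaling and after span adjustment (-0.38, limma adjusted p = 0.0481). Span adjustment lowered its difference, so passing then is no check on the fall. After span adjustment GINS3 was at 0.43 (limma adjusted p = 0.079) and MCM10 at 0.28 (limma adjusted p = 0.076). MCM10 was also short of the threshold after another quantile normalization (0.26, limma adjusted p = 0.0583) and cyclic loess (0.25, limma adjusted p = 0.0597).

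Among 16 genes of mitotic entry, 3 rose and 1 fell. BIRC5 encodes survivin, which holds Aurora B at the centromere. It read 8.01, 7.98 and 8.07 with the EGOT gapmer, against 7.48, 7.50 and 7.55 with the control gapmer (log2 difference 0.51, standard error 0.067, limma adjusted p = 0.013). The gap between the groups, more than 0.4 at its narrowest, was several times the spread within either. AURKB, which encodes Aurora B itself, was not called at 0.05 (limma adjusted p = 0.708), with a 95% confidence interval of -0.12 to 0.22.

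PLK4, the kinase that starts centriole duplication, rose 1.38-fold and read 7.37, 7.65 and 7.49 with the EGOT gapmer, against 7.12, 6.99 and 7.02 with the control gapmer (log2 difference 0.46, standard error 0.092, limma adjusted p = 0.0304). CCNB1, cyclin B1, read 8.83, 9.01 and 8.85 with the EGOT gapmer, against 8.58, 8.50 and 8.60 with the control gapmer (log2 difference 0.34, standard error 0.079, limma adjusted p = 0.0457), while its partner CDK1 was at 0.22 (limma adjusted p = 0.255). One control array of CDK1, replicate 1, lay at 7.94, below the other 2 at 8.26 and 8.25. CDC25A, a phosphatase that activates CDKs, was at 0.30 (limma adjusted p = 0.0793). Several standard mitotic genes differed little. AURKA was at 0.07 (95% confidence interval -0.11 to 0.24), PLK1 at -0.05 (-0.21 to 0.11), CCNA2 at 0.06 (-0.12 to 0.24) and CCNB2 at 0.02 (-0.18 to 0.22). Of these, AURKA and AURKB and CCNA2 and CCNB2 turned below 0 after span adjustment, and AURKB did so after another quantile normalization. After span adjustment BIRC5 still passed at 0.42 (limma adjusted p = 0.0276), while PLK4 was at 0.38 (limma adjusted p = 0.0694) and CCNB1 at 0.25 (limma adjusted p = 0.128). CCNB1 also missed the threshold after cyclic loess (0.28, limma adjusted p = 0.0533).

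MKI67, by contrast, fell. It encodes Ki-67, which coats mitotic chromosomes and whose protein is a common label of dividing cells. The arrays read 10.14, 10.03 and 10.07 with the EGOT gapmer, against 10.47, 10.62 and 10.55 with the control gapmer (log2 difference -0.47, standard error 0.074, limma adjusted p = 0.0188), which is 1.38-fold lower with the EGOT gapmer. The groups were separated by more than 0.3. After span adjustment the difference was -0.53 (limma adjusted p = 0.0241). The adjustment moves genes of this span down and so enlarges a fall, which makes it no check on this one. CCNB3, the cyclin B of the germ line, was at -0.24 (limma adjusted p = 0.0891). MKI67 and TOP2A, both used as proliferation labels, were therefore measured on the opposite side from BIRC5, CCNB1, CDT1 and MCM2 in the same 6 arrays.

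The promoters of CCNB1 and MKI67 are shown because these genes of mitosis moved in opposite directions. The 250 bases before each start site are given, with the CCAAT box and the CHR element TTTGAA in capitals on either strand.
CCNB1: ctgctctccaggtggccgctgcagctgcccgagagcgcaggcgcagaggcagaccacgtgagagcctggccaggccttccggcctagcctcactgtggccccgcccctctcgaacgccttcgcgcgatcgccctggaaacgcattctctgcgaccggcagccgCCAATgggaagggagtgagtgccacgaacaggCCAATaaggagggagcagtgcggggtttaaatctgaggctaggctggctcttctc
MKI67: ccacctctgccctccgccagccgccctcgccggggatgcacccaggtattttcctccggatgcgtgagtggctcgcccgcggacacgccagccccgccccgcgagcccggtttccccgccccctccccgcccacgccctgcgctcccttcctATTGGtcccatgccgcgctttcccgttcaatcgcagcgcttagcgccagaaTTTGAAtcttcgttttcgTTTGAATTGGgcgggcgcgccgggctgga
They lie at chr5:69166900-69167149 on the plus strand and chr10:128126424-128126673 on the minus strand, build GRCh38.p14. CCNB1 holds 2 CCAAT boxes and no TTTGAA in this stretch. Other spellings of the CHR element were not searched, so this does not show that CCNB1 lacks one. MKI67 holds 2 CCAAT boxes and 2 CHR elements, the last CHR and the last CCAAT sharing an A. In the full windows the CHR letters stood in 18 of 96 cell cycle genes (18.8%), in 11.8% of windows of the genes named on the array and in 15.4% of all windows in the table. The CCAAT box stood in 52.1% of the cell cycle genes, 36.0% of the named genes and 35.7% of all windows. The 11 windows of genes that rose held CHR in 2 and CCAAT in 3, and the 5 of genes that fell held each in 1. The 80 windows of the rest held CHR in 15 and CCAAT in 46.

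**Figure D2:**
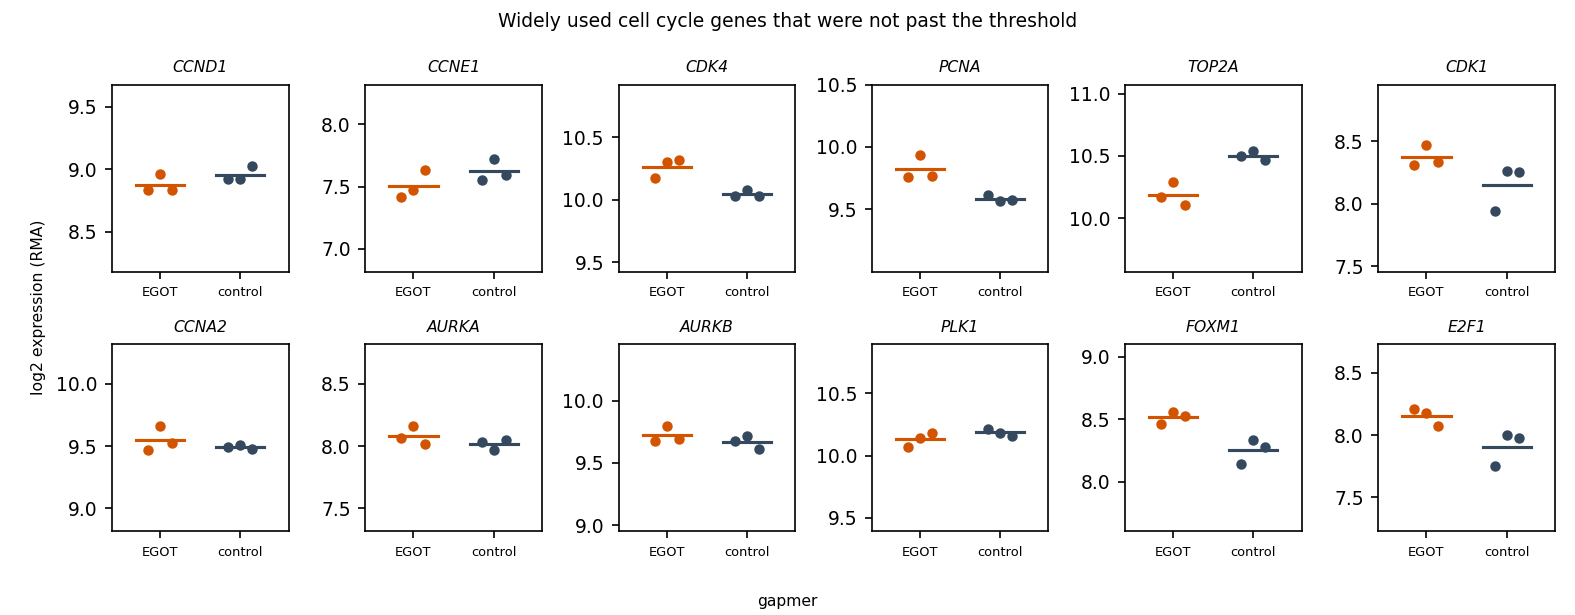
Log2 expression of 12 widely used cell cycle genes that were not past the threshold, with the EGOT gapmer left and the control gapmer right. Points are arrays and bars group means, over 1.5 log2 units per panel; TOP2A, CDK4, PCNA, FOXM1 and E2F1 do not overlap, whereas AURKA, AURKB, CCNA2 and PLK1 do.

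Of 11 genes of the spindle checkpoint, of ubiquitin ligases that drive the cycle and of the CDC14 phosphatases, 2 rose and none fell. CDC26, a small subunit of the anaphase-promoting complex, had the largest rise of the 115 genes, 1.53-fold. It read 6.22, 6.51 and 6.17 with the EGOT gapmer, against 5.62, 5.70 and 5.75 with the control gapmer (log2 difference 0.61, standard error 0.104, limma adjusted p = 0.0225). EGOT gapmer replicate 2 was highest, and without it the difference was 0.50 (limma adjusted p = 0.0400). CDC34, the E2 enzyme that serves SCF ubiquitin ligases, read 8.67, 8.70 and 8.79 with the EGOT gapmer, against 8.41, 8.25 and 8.34 with the control gapmer (log2 difference 0.38, standard error 0.076, limma adjusted p = 0.0305), and it was at 0.30 (limma adjusted p = 0.0793) after span adjustment. CDC26 still passed then, at 0.52 (limma adjusted p = 0.0464).

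Other subunits of the anaphase-promoting complex were not called. CDC23 was at 0.31 (limma adjusted p = 0.0644), CDC27 at 0.12 and CDC16 at 0.08, and the activator CDC20 was at 0.19 (limma adjusted p = 0.215). The checkpoint genes BUB1, BUB1B and BUB3 were not called either, at 0.04, -0.01 and -0.01. Their 95% confidence intervals were -0.11 to 0.19, -0.16 to 0.14 and -0.19 to 0.17. The phosphatase genes CDC14A and CDC14B were lowest, CDC14A at -0.44 (limma adjusted p = 0.115) and CDC14B at -0.42 (limma adjusted p = 0.101). In CDC14A this rested partly on EGOT gapmer replicate 2, the lowest of the 6 arrays, and without it the difference was -0.26. CDC14B was dim, below the median of 4 of the 6 arrays, and its other probe set had a difference of 0.14.

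The 17 CENP genes held both the largest fall and 3 of the rises. CENPV, a protein found at centromeres and on the spindle midzone, was 1.93-fold lower and read 7.59, 7.61 and 7.70 with the EGOT gapmer, against 8.64, 8.53 and 8.59 with the control gapmer (log2 difference -0.95, standard error 0.071, limma adjusted p = 0.00596). The groups were more than 0.8 apart, and it was the gene that passed with any 1 array left out, at between -0.99 and -0.93. After span adjustment it was at -1.04 (limma adjusted p = 0.0071). It is a short gene, with a span of 10.9 kb, and the adjustment moves genes of that span down, which enlarges a fall.

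The other CENP genes belong mostly to the constitutive network that links centromeric chromatin to the outer kinetochore. CENPN and CENPL, which bind each other and the CENPA nucleosome, both rose. CENPN read 9.02, 9.23 and 9.12 with the EGOT gapmer, against 8.71, 8.68 and 8.55 with the control gapmer (log2 difference 0.47, standard error 0.086, limma adjusted p = 0.0255). CENPL read 6.996, 7.11 and 7.20 with the EGOT gapmer, against 6.77, 6.56 and 6.63 with the control gapmer (log2 difference 0.45, standard error 0.09, limma adjusted p = 0.0305). Their rises were of nearly one size, 1.39-fold and 1.37-fold. CENPH read 7.41, 7.53 and 7.31 with the EGOT gapmer, against 6.93, 7.08 and 6.93 with the control gapmer (log2 difference 0.44, standard error 0.087, limma adjusted p = 0.0304). Of its partners in a 4-protein subcomplex, CENPI was at 0.28 (limma adjusted p = 0.0891), CENPM at 0.11 (limma adjusted p = 0.436) and CENPK at -0.10 (limma adjusted p = 0.372). CENPH was the one of these 4 genes that passed.

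The histone-fold members were also mixed in size. CENPX was at 0.33 (limma adjusted p = 0.128), CENPW was at 0.28 (limma adjusted p = 0.117), and CENPT was at 0.02. CENPO, CENPP, CENPQ and CENPU form another subcomplex and were at 0.16, -0.20, 0.23 and 0.14. CENPP was the only 1 of these below 0, and its span of 295 kb is the longest of the CENP genes. CENPA, the centromeric histone, was at -0.10 (limma adjusted p = 0.439), and CENPC, which binds it, at -0.03 (limma adjusted p = 0.839). After span adjustment CENPN was at 0.40 (limma adjusted p = 0.0525), CENPL at 0.38 (limma adjusted p = 0.0672) and CENPH at 0.36 (limma adjusted p = 0.0695). CENPBD2P, a transcribed pseudogene, was at 0.26.

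**Figure D3:**
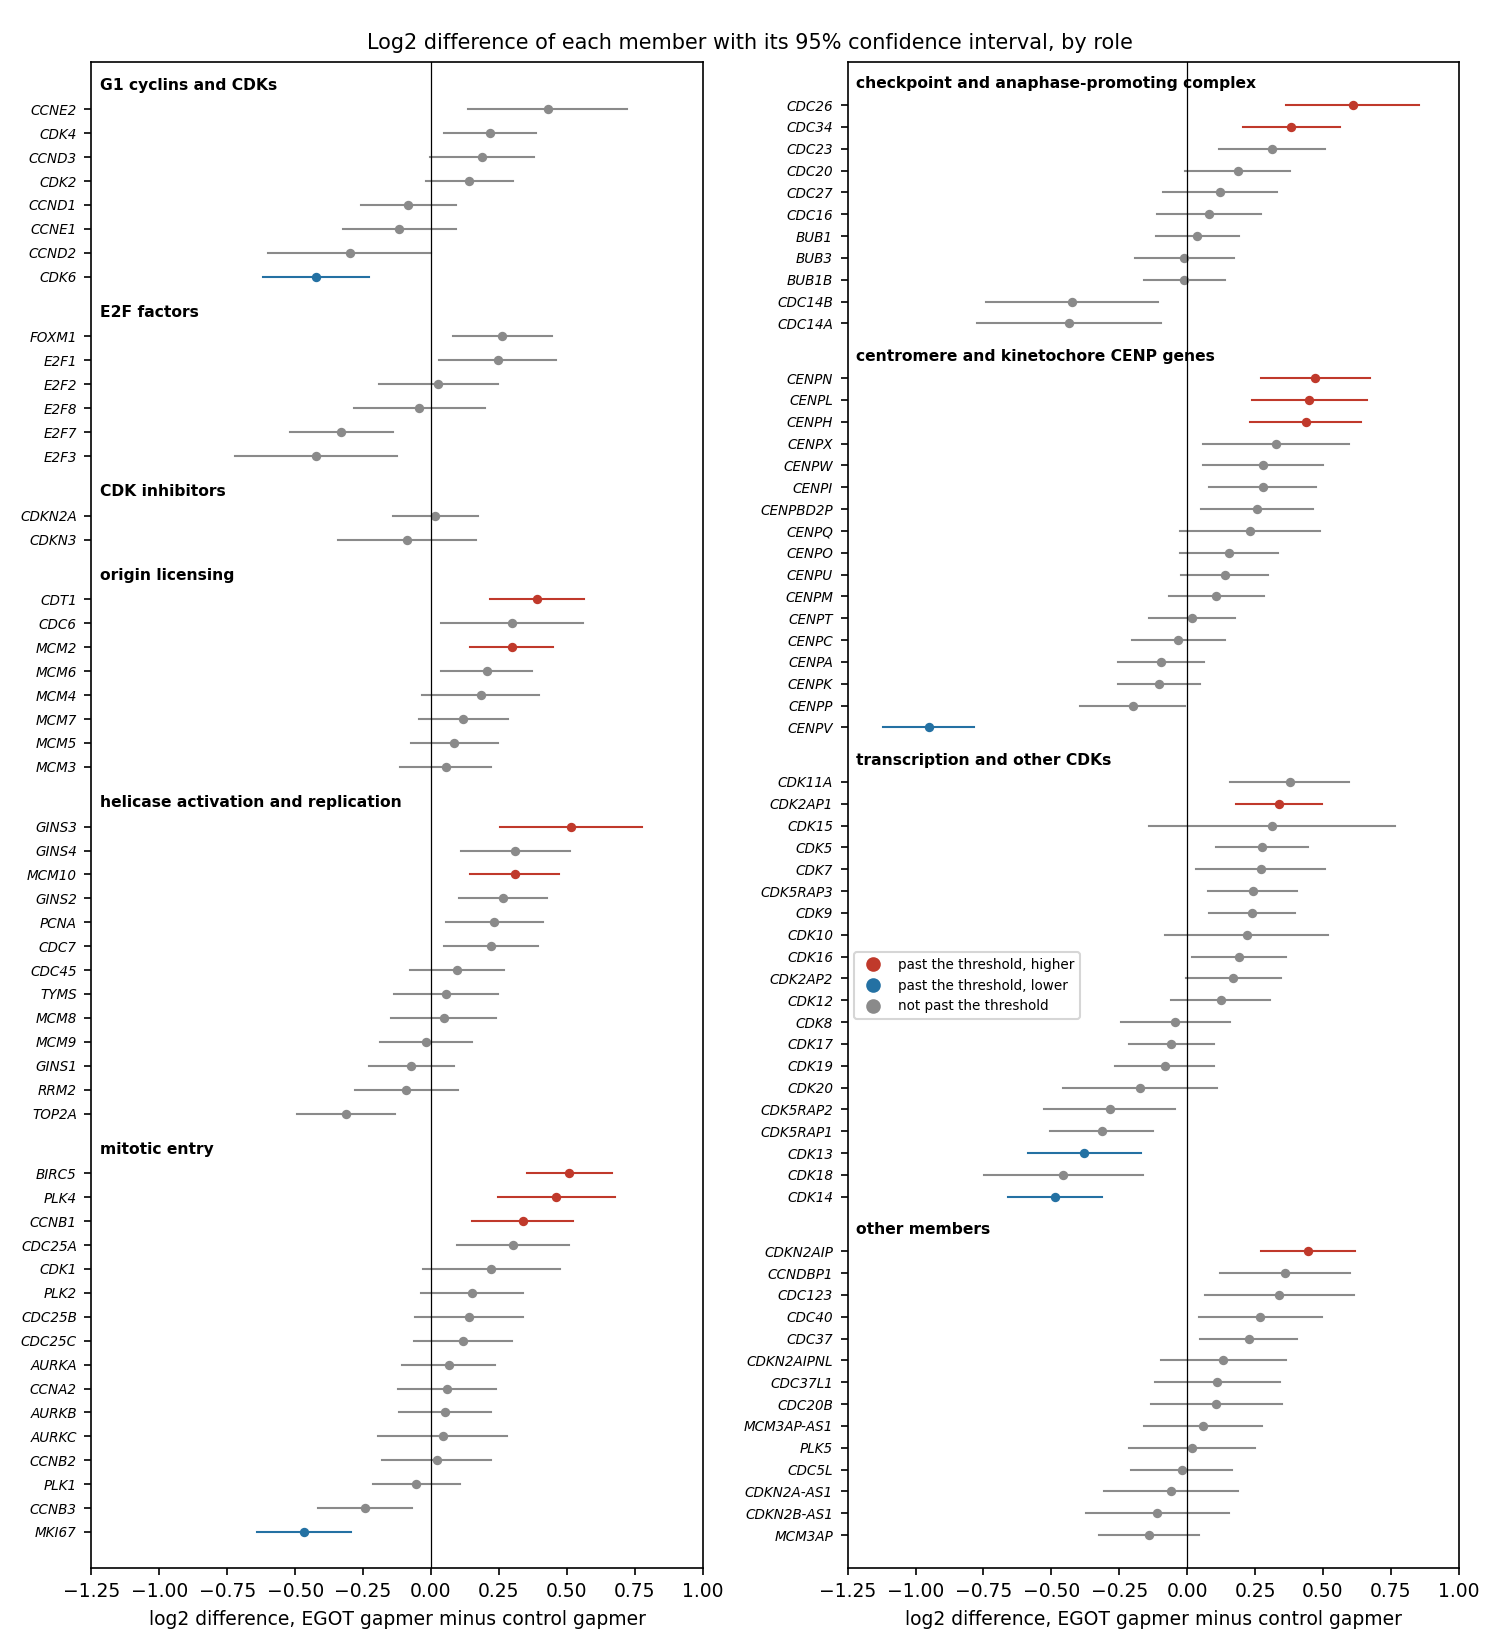
Log2 difference of each of the 115 cell cycle genes, EGOT gapmer minus control gapmer, with its 95% confidence interval from limma, grouped by role. Licensing genes all lie above 0, CDC26 is highest at 0.61 and CENPV lowest at -0.95.

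CDKs outside the core cycle and proteins named for them gave 1 rise and 2 falls among 20. CDK14, a kinase that pairs with cyclin Y, fell and read 8.10, 8.07 and 8.03 with the EGOT gapmer, against 8.59, 8.61 and 8.46 with the control gapmer (log2 difference -0.49, standard error 0.073, limma adjusted p = 0.0166). CDK13, which with cyclin K phosphorylates RNA polymerase II, read 7.98, 8.23 and 8.18 with the EGOT gapmer, against 8.54, 8.44 and 8.54 with the control gapmer (log2 difference -0.38, standard error 0.088, limma adjusted p = 0.0451). Both are long genes, with spans of 614 and 149 kb, and after span adjustment CDK14 was at -0.30 (limma adjusted p = 0.0723) and CDK13 was at -0.30 (limma adjusted p = 0.106). CDK12, the close relative of CDK13, was on the other side at 0.12 (limma adjusted p = 0.386), with a span of 106 kb.

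CDK2AP1, a CDK2-associated protein and subunit of the NuRD complex, read 8.01, 8.05 and 7.996 with the EGOT gapmer, against 7.71, 7.62 and 7.72 with the control gapmer (log2 difference 0.34, standard error 0.068, limma adjusted p = 0.0306). It was at 0.25 (limma adjusted p = 0.088) after span adjustment. Its relative CDK2AP2 was at 0.17 (limma adjusted p = 0.211). CDK11A was at 0.38 (limma adjusted p = 0.0519), a value that is uncertain because CDK11B is a near-identical copy. CDK5RAP1, a tRNA-modifying enzyme, was at -0.31 (limma adjusted p = 0.0574), and both CDK11A and CDK5RAP1 passed after either rescaling. The kinases of general transcription, CDK7 and CDK9, were at 0.27 and 0.24, and the Mediator kinases CDK8 and CDK19 at -0.04 and -0.08. CDK15 was dim on every array, below the array median.

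Among the 14 remaining genes 1 rose. CDKN2AIP encodes a protein that binds ARF, a product of CDKN2A. It read 7.59, 7.48 and 7.63 with the EGOT gapmer, against 7.18, 7.09 and 7.10 with the control gapmer (log2 difference 0.44, standard error 0.074, limma adjusted p = 0.0212), and it passed after span adjustment, at 0.36 (limma adjusted p = 0.0481). Its relative CDKN2AIPNL was at 0.13 (limma adjusted p = 0.464). CCNDBP1, a cyclin D binding protein, was at 0.36 (limma adjusted p = 0.0754), and CDC37 at 0.23 (limma adjusted p = 0.118). The antisense RNAs CDKN2B-AS1, CDKN2A-AS1 and MCM3AP-AS1 were at -0.11, -0.06 and 0.06, the first being dim on all 6 arrays.

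Gene span moved with the differences. Across the 115 cell cycle genes the log2 difference and the log10 of genomic span had a Pearson correlation of -0.40 and a Spearman correlation of -0.40. Across all 14812 genes the values were -0.17 and -0.21. These are descriptions over genes of the same 6 arrays, which are not independent. Of the 16 cell cycle genes of 100 kb or longer, 13 had a difference below 0, 3 fell and 0 rose, with a median of -0.16. The 99 shorter ones had a median of 0.14, with 14 rises and 2 falls, CENPV and MKI67. Over all named genes the median was -0.08 at 100 kb or longer, where 1509 of 2254 lay below 0. It was 0.06 under 100 kb.

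Among all named genes, too, the long genes that were called were mostly lower. Of 2254 named genes of 100 kb or longer, 281 fell and 19 rose, and of 12558 shorter ones 194 fell and 751 rose. The 14 cell cycle genes that rose had spans of 4.43 to 49.6 kb, and the 5 that fell spans of 10.9 to 614 kb. When the smooth trend of the difference on log10 span over all genes was taken out of the EGOT gapmer arrays, 6 cell cycle genes passed, which is 5.22%, against 3.54% of all genes. They were BIRC5, CDC26 and CDKN2AIP, which were higher, and CENPV, MKI67 and TOP2A, which were lower. The adjustment lowered the difference of all 6, which shrinks a rise and enlarges a fall, so it is no check on the falls. CENPW, CCND3 and CDK12 were the 3 exceptions among the long genes, with differences of 0.28, 0.19 and 0.12. Whether span itself or something that goes with it matters was not tested.

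**Figure D4:**
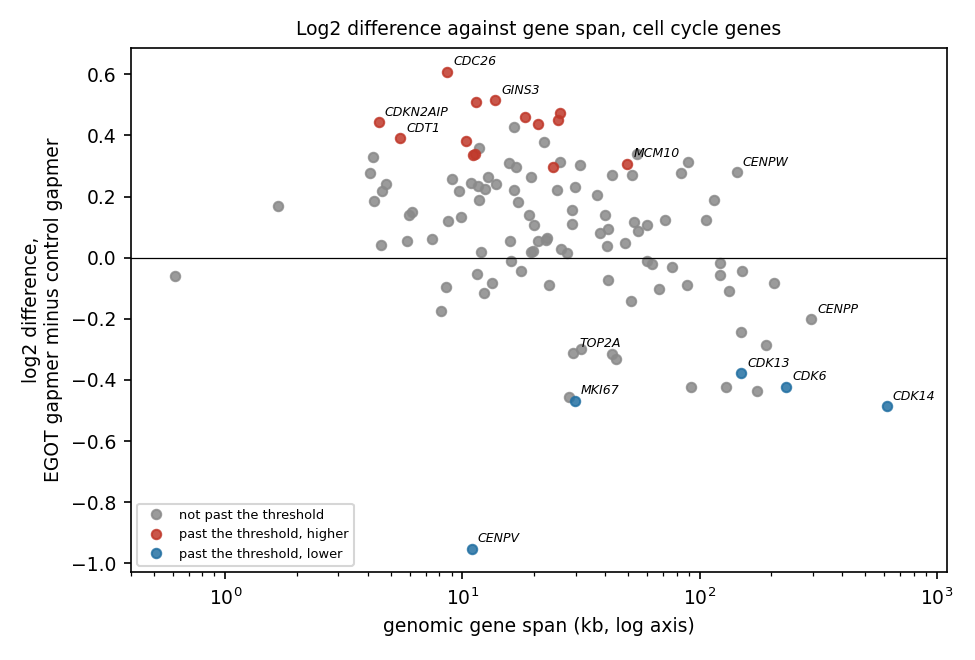
Log2 difference, EGOT gapmer minus control gapmer, of the 115 cell cycle genes against genomic gene span in kb on a log axis, coloured by call. Genes of 100 kb or longer lie mostly below 0, with CDK14 at 614 kb and -0.49, while CENPV is a short gene at -0.95.

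Other genes of the same pathways came from 6 lists that hold none of the 115. Of 125 listed genes 77 were measured, and 10 rose and 8 fell. The 18 calls are 23.4% of the 77, where 8.41% of all genes passed; the rises are 13%, against 5.2% of all genes, and the falls 10.4%, against 3.21%. The median difference was 0.09, against 0.04 over all genes. These 77 genes were also measured with less scatter, with a median SD between replicates of 0.076, against 0.122 over all genes. The lists were drawn up with earlier results of these data known, so their shares are not independent support. Both directions appeared in 5 of the 6 lists, as they had among the CENP genes. The count of calls in each single list below was not compared with the 8.41%.

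The measured replication fork genes were mostly above 0. They are 14 of 37 listed, and no DNA polymerase, primase, RFC or RPA gene is among them. Of the 14, 3 rose and 1 fell, and the median was 0.22. Above 0 lay 12 of them (85.7%), against 57.8% of all genes. FEN1, the flap endonuclease of lagging-strand synthesis, read 8.12, 8.13 and 8.14 with the EGOT gapmer, against 7.60, 7.71 and 7.70 with the control gapmer (log2 difference 0.46, standard error 0.068, limma adjusted p = 0.0159). Of the fork protection genes, TIMELESS was at 0.38 (limma adjusted p = 0.0225) and CLSPN was at 0.43 (limma adjusted p = 0.04). DNMT1, which copies DNA methylation behind the fork, fell, at -0.40 (limma adjusted p = 0.0278).

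RB and DREAM genes gave 2 falls among 11. TFDP1, the partner with which E2F factors bind DNA, read 6.67, 6.18 and 6.64 with the EGOT gapmer, against 7.43, 7.47 and 7.26 with the control gapmer (log2 difference -0.89, standard error 0.143, limma adjusted p = 0.0197). LIN52, a subunit of the DREAM complex that represses cell cycle genes, was at -0.59 (limma adjusted p = 0.0239). In the list of kinetochore and spindle genes 20 were measured, with 2 rises and 1 fall. TTK, the checkpoint kinase MPS1, was at 0.46 (limma adjusted p = 0.0284) and OIP5, which helps to load CENPA, at 0.42 (limma adjusted p = 0.0305), whereas KNTC1, a checkpoint protein of the outer kinetochore, was at -0.38 (limma adjusted p = 0.0226).

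Among 17 genes of mitotic exit and its ubiquitin ligases 3 rose and 1 fell. Of the CDK-binding subunits, CKS2 was at 0.62 (limma adjusted p = 0.0119) and CKS1B was at 0.34 (limma adjusted p = 0.0337). CKS2 read 10.22, 10.34 and 10.25 with the EGOT gapmer, against 9.72, 9.55 and 9.67 with the control gapmer, with more than 0.4 between the groups. Of the anaphase-promoting complex, ANAPC13 rose, at 0.45 (limma adjusted p = 0.0255), and ANAPC2 fell, at -0.31 (limma adjusted p = 0.0493). Of 6 checkpoint kinases and mitotic brakes, CHEK1 rose, at 0.35 (limma adjusted p = 0.0463), and ATR, the kinase upstream of it, fell, at -0.38 (limma adjusted p = 0.0411). CHEK1 missed the threshold after another quantile normalization (0.30, limma adjusted p = 0.0511) and cyclic loess (0.30, limma adjusted p = 0.0538). Of 9 cohesin and condensin genes, RAD21, a cohesin subunit, rose, at 0.38 (limma adjusted p = 0.0306). NIPBL, the cohesin loader, was lower, at -0.39 (limma adjusted p = 0.0293), as was STAG1, a cohesin subunit, at -0.35 (limma adjusted p = 0.0345). After span adjustment, 8 of these 18 calls passed, 3 higher and 5 lower. STAG1, which spans 416 kb, was then at -0.19 (limma adjusted p = 0.189). With 1 array left out, 5 of the 18 passed without EGOT gapmer replicate 1, 7 without EGOT gapmer replicate 2, 1, CKS2, without EGOT gapmer replicate 3, and 0 without any single control gapmer array. Of all genes, 3.91%, 3.41% and 1.05% passed without EGOT gapmer replicates 1, 2 and 3. Without control gapmer replicates 1, 2 and 3, 0.392%, 0.0608% and 0.23% did. All 18 kept their sign after span adjustment, which moved TFDP1, DNMT1 and ANAPC2 further below 0. With 1 array left out the sign could not turn, because the groups did not overlap in any of the 18.

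**Figure D5:**
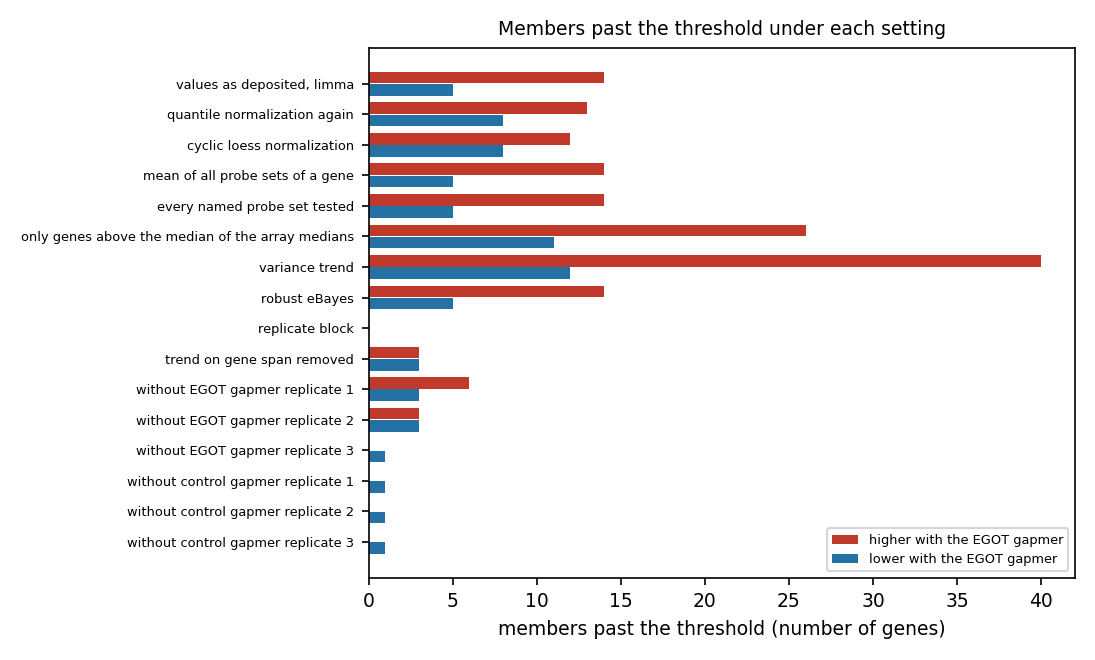
Number of called genes among the 115, in red those higher and in blue those lower with the EGOT gapmer, under each analysis setting. The count is 14 and 5 with the values as deposited, 40 and 12 with a variance trend, 3 and 3 after span adjustment, and 0 and 1 without any single control gapmer array. Of all genes 8.41% passed with the values as deposited, 17% with a variance trend and 3.54% after span adjustment. Without control gapmer replicates 1, 2 and 3 it was 0.392%, 0.0608% and 0.23%.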

How the data were processed

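The deposited log2 expression values were made by the authors with RMA, as the submitters' processing notes state. This method corrects background, normalizes quantiles between arrays and summarises probe sets, so a change in total RNA per cell would not be seen. Its version is not given in the sources used here. The platform annotation gives 1 symbol to 15835 of 44629 probe sets, which cover 14812 genes, 651 of them by several probe sets. The difference, EGOT gapmer minus control gapmer, was tested in R 4.3.3 using limma 3.58.1 (lmFit, eBayes, two-sided, Benjamini-Hochberg over all 14812 genes, threshold 0.05). The labels do not say whether replicates are separate cultures. The p-values therefore measure only how these samples scatter, possibly for technical reasons. The fit was tested on simulated data. Spans are RefSeq genomic lengths on GRCh38.p14. Promoters are RefSeq's, the first window listed per gene, for 96 of 115 members. Named genes are all called members, in each role list the 2 uncalled members with the smallest p and the member with the highest level, 14 fixed genes such as PCNA, EGOT, and all called genes of the other lists; further members were added after their values were seen. Alternatives were 2 rescalings, other uses of probe sets, a filter on low values, other limma settings, a replicate block, removal of the trend on span, and leaving out each array. The members, lists and alternatives were chosen with earlier results of these data known.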

Additional observations from a re-analysis of the deposited data

How the results depend on the processing

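The count of cell cycle genes past the threshold was 19, with 14 higher and 5 lower. The count stood at 19, 14 and 5 with the mean of all probe sets, with every probe set tested and with robust limma. Each of the 19 has 1 probe set, so the choice of probe sets could not change its difference. It was 37, 26 and 11 among genes above the median of the array medians, 52, 40 and 12 with a variance trend in limma, and 6, 3 and 3 after span adjustment. Calls moved over all genes too. With the filter 33.9% of the cell cycle genes passed, against 20.3% of all genes. With the variance trend it was 45.2% against 17%, and after span adjustment 5.22% against 3.54%. After another quantile normalization 8 were lower and after cyclic loess 8. Leaving out 1 array gave 1 to 9 called, 0 to 6 higher and 1 to 3 lower, while 0.0608% to 3.91% of all genes passed. Signs turned for genes near 0: AURKB was at -0.00409 after another quantile normalization and at -0.0312 after span adjustment, where AURKA was at -0.0088 and CDKN2A at -0.0511. With 1 array left out CDKN2A lay between -0.00898, without control gapmer replicate 3, and 0.0339, without control gapmer replicate 2. With the replicate number as a block in limma, 0 of all 14812 genes passed. So 0 cell cycle genes were called, 0 higher and 0 lower, and 0 of the 18 calls in the other lists passed. Of the 115 genes, 52 had an unadjusted limma p under 0.05 with the block, against 55 without it. Replicate numbers shared by the groups come with no stated pairing, and the deviations of same-numbered arrays correlated at -0.03, -0.05 and 0.04, so the block is not read as evidence of pairing or of a weaker effect. Precision is limited by 3 arrays per group; 6 of the 115 genes lay below the array median on 3 or more arrays. The cause of the other moves was not tested.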
